A study of Mus musculus with 24 samples.

Results

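Heterotrimeric G proteins, the Rgs proteins that switch them off, and the enzymes that make and break down cyclic AMP were followed through RNA sequencing of mouse pancreatic islets that had lost Cop1. The members were chosen by gene symbol: G protein α, β and γ subunit genes (Gna, Gnb and Gng), numbered Rgs genes, adenylate cyclases (Adcy) and the cyclic nucleotide phosphodiesterases (Pde1 to Pde11). The symbols picked 90 of the 28059 genes in the table. Of these, 62 reached 1 RPKM (read counts scaled to gene length and library size) in at least 4 libraries and were tested, which is 14 of 17 Gna genes, 4 of 5 Gnb, 9 of 13 Gng, 14 of 23 Rgs, 5 of 10 Adcy and 16 of 22 Pde. The other 28 stayed below that level, and 1 of them, Rgs21, was listed at 0 in every library. The symbols also took in Gnasas1, a transcript antisense to Gnas, the pseudogene Gng5-ps, and Rgs7bp and Rgs9bp, which encode partners of Rgs proteins. Pde6d, counted with the Pde genes, encodes a binding partner of lipid-modified proteins and not an enzyme.

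COP1 is an E3 ubiquitin ligase, and the ETS factors ETV1, ETV4 and ETV5 are among the proteins it marks for degradation. The sample names fall into 2 number series, here called set 1 and set 2, and all mice were 3 to 4 months old on a mixed background. Controls of both sets carried floxed Cop1 (Cop1 fl/fl) without Cre, with 3 libraries in set 1 and 4 in set 2. Cop1 deletion libraries, 3 and 4, came from Cop1 fl/fl mice with Pdx1.CreERT2, a tamoxifen-inducible Cre driven by a promoter active in β cells and other Pdx1-positive cells. Set 1 added 4 libraries with Etv1 fl/fl, Etv4 ko/ko and Etv5 fl/fl alleles on top of Cop1 fl/fl and Pdx1.CreERT2, called the Etv1/4/5 libraries below. Set 2 added 4 with Etv4 ko/+ and Etv5 fl/fl, called the Etv4/5 libraries, which kept Etv1 and 1 intact Etv4 allele. Every Cre-bearing group shared the Pdx1.CreERT2 transgene that the controls lacked. The comparisons ask what Cop1 loss changes in islets and how libraries labelled with added Etv deletions differ from those labelled with Cop1 deletion alone.

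A G protein-coupled receptor loads GTP onto a G protein α subunit, which then parts from the βγ dimer. Gs activates adenylate cyclase, Gi and Go restrain it and act on ion channels through βγ, and Gq and G11 drive phospholipase C. Rgs proteins speed up GTP hydrolysis on α subunits, and phosphodiesterases end the cyclic nucleotide signal. In β cells, incretin receptors raise cyclic AMP through Gs and amplify insulin release, while adrenergic and somatostatin receptors lower it through Gi and Go.

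Transcripts of Ins1 and Ins2, which define β cells, made up 21.0% to 41.1% of the RPKM of a library. Cop1 was 1.43 to 1.87 RPKM in 6 of the 7 controls and 1.22 in set 1 control replicate 2. It was 0.719 to 1.13 RPKM in all libraries labelled as Cre-bearing. Relative depth, read from the steps of low values, was 0.331 to 0.526 of the deepest library in set 1 and 0.758 to 1 in set 2. Esr1, which reports the CreERT2 transgene, was 0.05 to 0.2 RPKM in 6 controls but 99.1 in the library labelled set 1 control replicate 2, against its label. The Etv RNA levels over whole genes went against the labels of the compound deletions. In the libraries labelled Etv1/4/5, Etv4 was 0.927 to 1.53 RPKM against 0.0418 to 0.118 in their controls, and neither Etv1 (4.89 to 5.61) nor Etv5 (2.57 to 4.85) was below the Cop1 deletion libraries (4.23 to 5.01 and 2.31 to 3.58). In the libraries labelled Etv4/5, Etv4 was 0.778 to 1.20 RPKM against 0.349 to 0.661 in their controls. Their Etv5, 1.39 to 1.83 RPKM, lay below the controls (2.93 to 6.99) but within the range of the Cop1 deletion libraries (1.23 to 2.75). Names such as Etv1/4/5 libraries therefore give the label, and every direction drawn from them rests on it. Set 2 Cop1 deletion replicates 2 and 3 and Etv4/5 replicates 1 and 3 carried Y-linked RNA where all 4 controls of that set carried Xist. Set 1 was mixed, and Cop1 deletion replicate 3 and Etv1/4/5 replicates 3 and 4 carried both. For set 2 Cop1 deletion replicates 2 and 3, summed immune markers were 412 and 249 RPKM against 66.4 to 138 in the controls. For most members whose calls were lost without that pair, values are given with and without it. The pathway lists and class sums are given with it only. Of 10 β cell markers, 6 fell and 1 rose after Cop1 deletion in the mean of both sets, with a median log2 fold change of -0.715. Their summed level was 265000 to 299000 RPKM in controls and 217000 to 238000 after Cop1 deletion in set 1, and 168000 to 233000 and 166000 to 244000 in set 2. Against Cop1 deletion, 5 of the 10 were higher in the Etv1/4/5 libraries and 2 in the Etv4/5 libraries. The part of these markers' cells in the changes below was not tested.

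In the mean of both sets, 12 of the 62 tested members were called between Cop1 deletion and control, 6 higher and 6 lower. A gene is called here when its Benjamini-Hochberg adjusted p from limma, over all 14342 genes tested, is below 0.05. Of all genes tested, 20.1% were called in that comparison, and the members' 19.4% lay close to it. The median log2 fold change was 0.027 over the members and -0.016 over all genes. Gna14, Rgs2, Rgs9, Gnasas1, Gnal and Gng3 rose, and Pde10a, Gng12, Gnai3, Rgs3, Pde4c and Gnao1 fell. In set 1 alone, 8 members were called, 4 higher and 4 lower, beside 8.33% of all genes. In set 2 alone, 14 were called, 4 higher and 10 lower, beside 18.8% of all genes. The members' shares in these sets were 12.9% and 22.6%. The split over all genes in the mean, 1372 higher and 1505 lower, moved to 1489 and 839 when every library was set to one RPKM total, and to 751 and 2590 when Ins1 and Ins2 were kept out of that total. No call of a member changed direction under any alternative. Fold changes are on the log2(RPKM + 0.5) scale, which understates changes of genes near or below 1 RPKM. Where groups are said below not to overlap, this describes the few libraries of each group and is no test. The share of all genes with groups so separated was not counted.

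**Figure D1:**
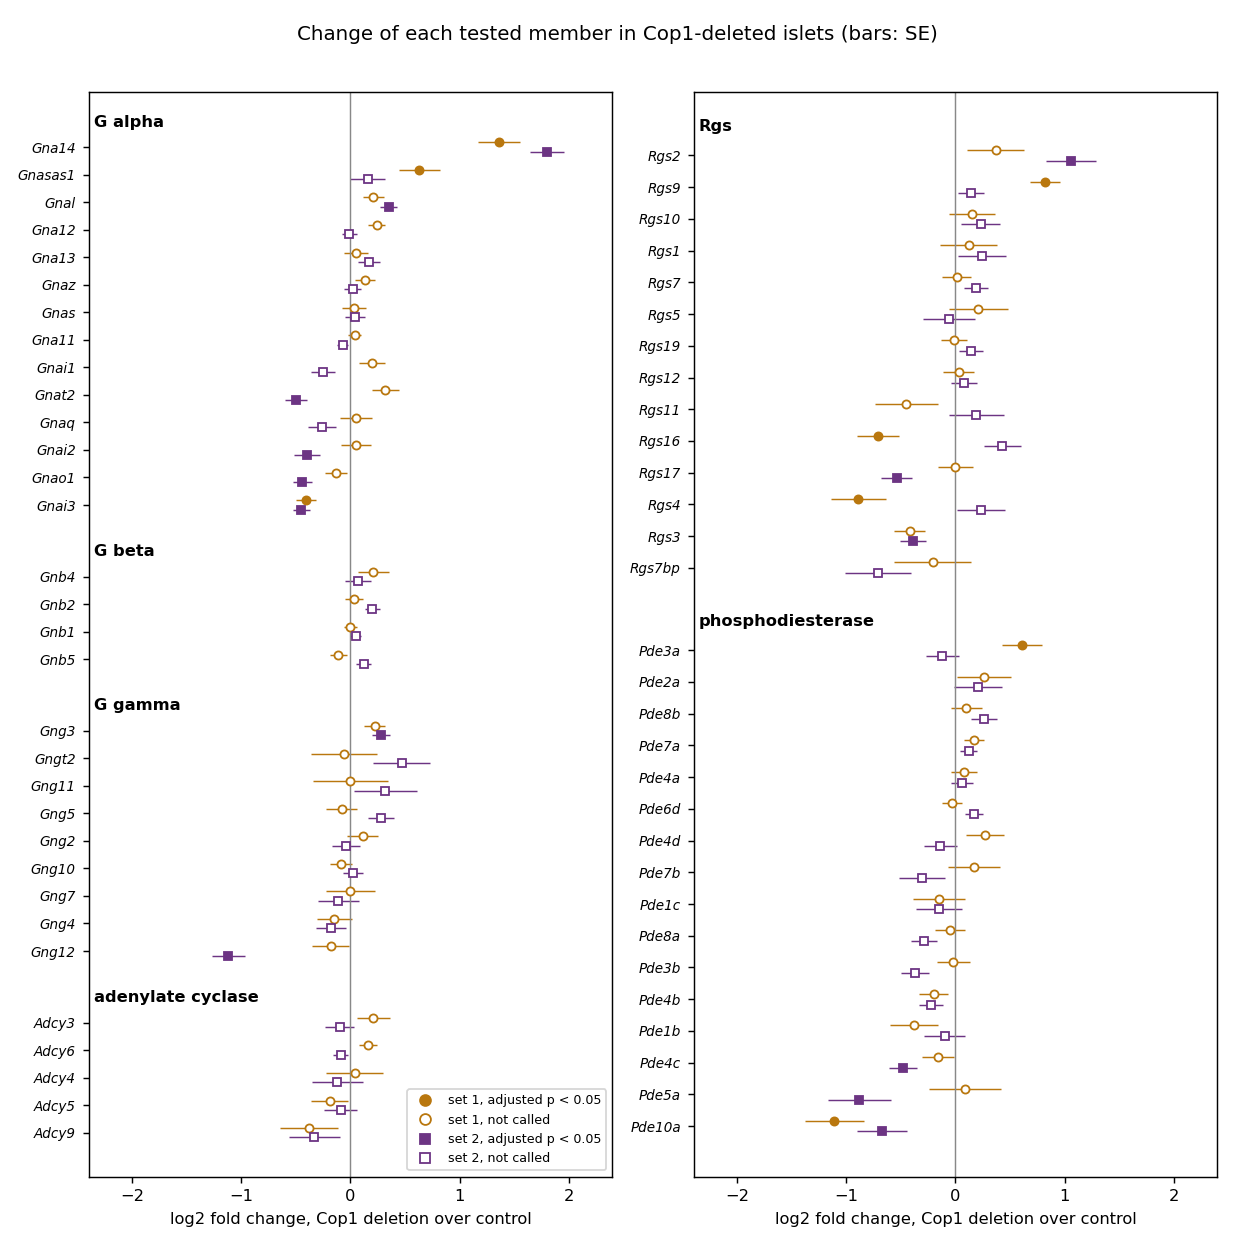
Log2 fold change of Cop1 deletion over control for each of the 62 tested members, by family, with set 1 as circles and set 2 as squares; bars are the standard error and filled symbols mark an adjusted p below 0.05. Gna14 lies furthest to the right in both sets, at 1.36 and 1.80, while no Gβ and no adenylate cyclase symbol is filled.

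Promoter sequence was read for 4 members, to show the stretch before the start of transcription. RefSeq windows of the GRCm38.p6 build, a build other than that of the reads, existed for 65 of the 90 members and 49 of the 62 tested. Each window holds 300 bases, and the 250 bases before the start are printed in lower case. Capitals mark 4 motifs searched on both strands: the cyclic AMP response element TGACGTCA and its half-site TGACG, which lies within it, and the ETS-type motifs CCGGAAGT and AGGAAGT, which share letters but not a whole match. Gna14 and Rgs9 are shown because they rose in set 1 and were lower with Etv1/4/5 deletion, Rgs2 because it rose and Gnai3 because it fell.
Gna14, chr19:16435417-16435666, plus strand: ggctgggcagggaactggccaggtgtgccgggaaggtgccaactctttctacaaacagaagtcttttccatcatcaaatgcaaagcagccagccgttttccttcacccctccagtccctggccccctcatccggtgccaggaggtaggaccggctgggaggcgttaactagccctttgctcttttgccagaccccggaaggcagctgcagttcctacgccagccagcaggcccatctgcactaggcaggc
Rgs9, chr11:109298182-109298431, minus strand: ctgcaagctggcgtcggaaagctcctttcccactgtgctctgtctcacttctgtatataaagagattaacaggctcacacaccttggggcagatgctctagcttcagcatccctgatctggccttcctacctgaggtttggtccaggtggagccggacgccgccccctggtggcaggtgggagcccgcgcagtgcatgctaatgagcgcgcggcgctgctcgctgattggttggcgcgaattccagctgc
Rgs2, chr1:144004150-144004399, minus strand: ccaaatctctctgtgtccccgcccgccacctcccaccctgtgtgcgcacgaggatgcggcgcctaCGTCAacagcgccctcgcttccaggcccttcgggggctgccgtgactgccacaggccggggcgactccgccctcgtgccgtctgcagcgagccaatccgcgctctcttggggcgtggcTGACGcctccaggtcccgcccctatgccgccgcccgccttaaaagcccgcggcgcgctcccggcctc
Gnai3, chr3:108146153-108146402, minus strand: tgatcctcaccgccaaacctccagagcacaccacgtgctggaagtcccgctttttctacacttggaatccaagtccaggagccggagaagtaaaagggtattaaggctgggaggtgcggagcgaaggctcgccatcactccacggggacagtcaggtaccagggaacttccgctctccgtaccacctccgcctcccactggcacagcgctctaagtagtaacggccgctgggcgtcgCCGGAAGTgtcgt

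The Gna14 and Rgs9 stretches held none of the 4 motifs. Rgs2 held the half-site TGACG on each strand, 67 and 185 bases before the start. Gnai3 held CCGGAAGT, beginning 13 bases before the start. Over all 32851 windows, TGACGTCA occurred in 1.79%, TGACG in 20.8%, CCGGAAGT in 3.89% and AGGAAGT in 9.35%. Over the 78 windows of tested members, the same motifs occurred in 0, 18, 1 and 8 windows. Among members called in the mean of both sets, only Rgs2 and Gnai3 held a motif in these 250 bases. The windows of members that rose held TGACG in 1 of 4 and no other motif. Those of members that fell held TGACG, CCGGAAGT and AGGAAGT in 1 of 9 each. The printed matches are therefore not typical of the called members. A match is a run of letters and no site, and its absence covers this window alone.

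Levels within each family were concentrated in a few genes. By mean RPKM pooled over all 22 libraries, the leading pairs were Gnas and Gnai2 (298 and 246), Gnb2 and Gnb1 (138 and 97.8), Gng12 and Gng4 (139 and 90), Rgs4 and Rgs2 (145 and 26.5), Adcy6 and Adcy9 (21.5 and 13.6), and Pde3b and Pde5a (30.6 and 23.7). RPKM is scaled to gene length, so these levels can be set beside each other. The order was not the same in each set. Gnai2 was above Gnas in set 2 controls (334 and 300), and Pde5a above Pde3b in set 1 controls (34.5 and 30.9). Behind Rgs4 came Rgs5 and Rgs16 in set 1 controls, and Rgs11 and Rgs7 (17.7 and 13.6) in set 2 controls. The sets differed in control level for some members. Rgs4 was 97.4 ± 40.7 RPKM (SD, n = 3) in set 1 controls and 196 ± 25.7 (SD, n = 4) in set 2 controls. Rgs5, Rgs16 and Rgs2 went the other way, with 38.4, 37.2 and 34.8 RPKM in set 1 controls and 10.8, 9.91 and 10.8 in set 2 controls. Gng11 was 4.06 and 16.9, and Rgs17 2.22 and 9.38. Each comparison below therefore stays within a set, or averages or subtracts differences made within a set.

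**Figure D2:**
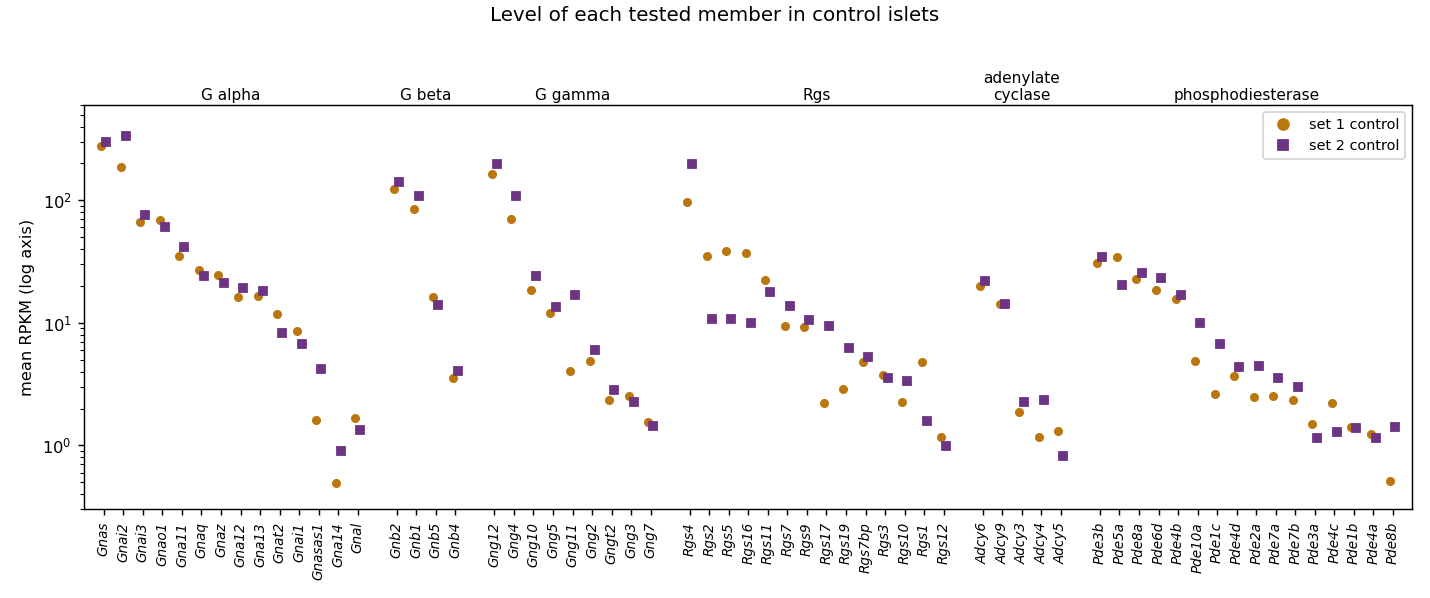
Mean RPKM of each tested member in the controls of set 1 (circles, n = 3) and set 2 (squares, n = 4), on a log axis, ordered within a family by the mean over the 6 groups. Gnas and Gnai2 stand at the top of the α subunits, and Rgs4 stands above all other Rgs genes in both sets.

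Among the α subunits, Gna14 changed most. It encodes a Gq-class subunit that couples receptors to phospholipase C. In set 1, Gna14 measured 0.577, 0.582 and 0.309 RPKM in the controls and 2.38, 1.89 and 1.84 in the Cop1 deletion libraries. In set 2, Gna14 measured 0.845, 0.709, 0.95 and 1.07 RPKM in the controls and 3.89, 5.42, 5.39 and 3.08 after Cop1 deletion. Every Cop1 deletion library lay above every control of its set, and the library labelled set 1 control replicate 2 lay with the other controls. The log2 fold change was 1.58 ± 0.12 (SE), adjusted p = 5.3e-08, in the mean of both sets, 1.36 ± 0.19 in set 1 (adjusted p = 9.5e-05) and 1.80 ± 0.16 in set 2 (adjusted p = 5.3e-07). Gna14 remained a minor α subunit, since its Gq-class relatives Gna11 and Gnaq stood at 39.3 and 20.7 RPKM in the set 2 Cop1 deletion libraries and neither was called in any comparison. Whether more RNA per cell or more cells with the transcript produced such a change cannot be told apart in bulk islets, here or for the genes below.

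With the added Etv deletions, Gna14 was 0.943, 0.627, 0.74 and 0.63 RPKM in the Etv1/4/5 libraries and 3.36, 2.76, 3.29 and 2.17 in the Etv4/5 libraries. All 4 Etv1/4/5 values lay below the set 1 Cop1 deletion values and above the set 1 controls. Against Cop1 deletion alone, the log2 difference was -1.04 ± 0.18 (SE), adjusted p = 0.00098, with Etv1/4/5 deletion and -0.52 ± 0.16 (SE), adjusted p = 0.099, with Etv4/5 deletion. Against control it was 0.33 ± 0.18 (SE), adjusted p = 0.6, in the Etv1/4/5 libraries and 1.28 ± 0.16 (SE), adjusted p = 4.9e-05, in the Etv4/5 libraries. The 2 compound deletions were made in different sets and their difference was not tested. All 5 calls of Gna14 held under every alternative run.

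In the class of Gi, Go, Gz and transducin genes, Gnai3, Gnao1, Gnai2 and Gnat2 fell in set 2, and Gnai3 also fell in set 1. Gnai3 encodes one of the 3 Gi α subunits. In set 1, Gnai3 measured 63.8, 74.4 and 61.8 RPKM in the controls, 49.2, 49.1 and 50.9 after Cop1 deletion and 62, 63, 62.6 and 63.2 in the Etv1/4/5 libraries. In set 2, Gnai3 measured 78.5, 78.7, 66.6 and 78.2 RPKM in the controls, 54.5, 45, 61 and 61.1 after Cop1 deletion and 57.5, 59.7, 60.8 and 60.9 in the Etv4/5 libraries. In both sets every Cop1 deletion library lay below every control. Its promoter is the printed one with CCGGAAGT. Its log2 fold change was -0.43 ± 0.06 (SE), adjusted p = 6.3e-05, in the mean of both sets, -0.41 ± 0.09 in set 1 (adjusted p = 0.0083) and -0.45 ± 0.08 in set 2 (adjusted p = 0.00085). The Etv1/4/5 libraries were higher than Cop1 deletion alone by 0.33 ± 0.09 (SE), adjusted p = 0.028. The Etv4/5 libraries differed from control by -0.33 ± 0.08 (SE), adjusted p = 0.014, and from Cop1 deletion alone by 0.12 ± 0.08 (SE), adjusted p = 0.38. With every library set to one RPKM total, the set 1 change of Gnai3 was -0.28 (adjusted p = 0.19) and its Etv1/4/5 difference 0.19 (adjusted p = 0.35), so both calls rest on the scaling. The second call was also lost on leaving out any 1 of the 7 libraries it compares, with a highest adjusted p of 0.35 over all alternatives. That scaling moved the median of all genes by 0.13 in the first comparison and by -0.14 in the second.

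Gnao1 encodes the Go α subunit, which is abundant in neurons and endocrine cells. In set 1, Gnao1 was 68.1, 65.2 and 73.7 RPKM in the controls, 62.7, 62.9 and 63.3 after Cop1 deletion and 65.4, 65.2, 66.3 and 67.3 in the Etv1/4/5 libraries. In set 2, Gnao1 was 65, 63.5, 59.8 and 52.8 RPKM in the controls, 48.8, 34.9, 43 and 51.3 after Cop1 deletion and 54.1, 54.4, 56.3 and 55.1 in the Etv4/5 libraries. The groups of controls and Cop1 deletion did not overlap in either set. By limma, the log2 fold change stood at -0.29 ± 0.07 (SE), adjusted p = 0.0044, in the mean of both sets. It passed the test in set 2, at -0.44 ± 0.09 (SE), adjusted p = 0.0016, and was -0.13 ± 0.10 (SE), adjusted p = 0.55, in set 1. The difference between the sets was 0.31 ± 0.13 (SE), adjusted p = 0.24.

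Gnai2 encodes the Gi α subunit with the highest RPKM here. In set 1, Gnai2 was 169, 189 and 205 RPKM in the controls, 181, 208 and 193 after Cop1 deletion and 193, 193, 274 and 244 in the Etv1/4/5 libraries. In set 2, Gnai2 was 374, 380, 314 and 266 RPKM in the controls, 224, 279, 239 and 259 after Cop1 deletion and 249, 250, 286 and 236 in the Etv4/5 libraries. The lowest set 2 control, replicate 4, lay among the Cop1 deletion values. The set 2 log2 fold change was -0.40 ± 0.12 (SE), adjusted p = 0.027, and it was -0.45 (adjusted p = 0.063) without Cop1 deletion replicates 2 and 3; the call was lost under 7 of 34 alternatives, which leave out control replicate 1 or 2 or Cop1 deletion replicate 1 or 3, among others. In set 1 it was 0.05 ± 0.14 (SE), adjusted p = 0.91, and the difference between sets was 0.46 ± 0.19 (SE), adjusted p = 0.22.

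Gnat2 encodes the α subunit of cone transducin, known from photoreceptors. In set 1, Gnat2 was 12.4, 10.4 and 12.1 RPKM in the controls, 14.9, 13.9 and 15.1 after Cop1 deletion and 13, 13, 13.8 and 12.6 in the Etv1/4/5 libraries. In set 2, Gnat2 was 8.96, 8.66, 8.05 and 7.56 RPKM in the controls, 4.65, 5.95, 5.19 and 7.44 after Cop1 deletion and 7.06, 8.02, 7.26 and 6.23 in the Etv4/5 libraries. The Cop1 deletion libraries lay above the controls in set 1 and below them in set 2. On the log2 scale the change was 0.32 ± 0.12 (SE), adjusted p = 0.12, in set 1 and -0.50 ± 0.10 (SE), adjusted p = 0.0026, in set 2. The difference between the sets passed the test at 0.82 ± 0.16 (SE), adjusted p = 0.0079, and held under every alternative run.

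The other Gi-class genes were Gnai1, another Gi subunit, and Gnaz, the Gz subunit. Gnai1 was 6.68, 5.54 and 7.57 RPKM on average in set 2 controls, Cop1 deletion and Etv4/5 libraries. It was the 1 member called between the Etv4/5 and Cop1 deletion libraries, at 0.43 ± 0.11 (SE), adjusted p = 0.047, and that call held in 11 of 34 alternatives. Gnaz, 24.5 and 21.2 RPKM in the controls of the 2 sets, was called in no comparison.

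Gnas, which encodes the stimulatory subunit Gs, showed no called change. In set 1, Gnas was 275, 229 and 332 RPKM in the controls, 273, 295 and 275 after Cop1 deletion and 249, 253, 278 and 267 in the Etv1/4/5 libraries. In set 2, Gnas was 283, 278, 353 and 285 RPKM in the controls, 318, 301, 290 and 320 after Cop1 deletion and 330, 372, 333 and 357 in the Etv4/5 libraries. Groups overlapped throughout set 1 and between set 2 controls and Cop1 deletion, while the Etv4/5 values lay above the Cop1 deletion values. The log2 fold change was 0.03 ± 0.07 (SE), adjusted p = 0.77, in the mean of both sets.

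Gnasas1, transcribed antisense within the imprinted Gnas locus, was higher after Cop1 deletion in the mean of both sets and in set 1. In set 1, Gnasas1 was 1.71, 1.23 and 1.93 RPKM in the controls, 2.67, 2.8 and 2.83 after Cop1 deletion and 2.71, 2.32, 3.11 and 2.78 in the Etv1/4/5 libraries. In set 2, Gnasas1 was 3.29, 2.99, 4.12 and 6.37 RPKM in the controls, 3.89, 3.95, 5.24 and 5.37 after Cop1 deletion and 6.39, 5.92, 5.98 and 6.51 in the Etv4/5 libraries. Its log2 fold change was 0.40 ± 0.13 (SE), adjusted p = 0.03, in the mean of both sets and 0.63 ± 0.19 (SE), adjusted p = 0.044, in set 1, where the groups did not overlap. In set 2, where they did, it was 0.16 ± 0.16 (SE), adjusted p = 0.51. Without set 1 control replicate 2 the mean and set 1 values were 0.33 (adjusted p = 0.088) and 0.49 (adjusted p = 0.17), and over all alternatives the calls were lost under 10 and 17. The sources used here do not say whether reads were counted by strand, so reads from any bases the 2 genes share cannot be told apart; such bases were not measured.

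Gnal, which encodes the stimulatory olfactory subunit Golf, was low and rose slightly. In set 1, Gnal was 1.73, 1.8 and 1.52 RPKM in the controls, 1.93, 2.14 and 2.01 after Cop1 deletion and 1.71, 1.59, 1.72 and 1.8 in the Etv1/4/5 libraries. In set 2, Gnal was 1.27, 1.42, 1.22 and 1.44 RPKM in the controls, 1.96, 2.1, 1.62 and 1.7 after Cop1 deletion and 1.78, 1.51, 1.86 and 1.64 in the Etv4/5 libraries. Cop1 deletion values lay above the controls in both sets, and the log2 fold change was 0.28 ± 0.06 (SE), adjusted p = 0.0036, in the mean of both sets. Part of its annotated exon sequence, 7.63%, is shared with Mppe1 on the opposite strand. Gna12 and Gna13 were 16.3 to 20.8 RPKM in group means and were called in no comparison.

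The sums of the α classes followed these genes. Gi, Go, Gz and transducin genes made up 55.4% ± 4.1 (SD, n = 4) of the summed α subunit RPKM in set 2 controls and 48.1% ± 1.84 (SD, n = 4) after Cop1 deletion. In single libraries these shares were 51% to 59.1% and 45.5% to 49.9%, without overlap. The Gs and Golf share was 33.1% ± 4.05 and 38.8% ± 1.33 in the same groups, with ranges of 29.4% to 37.7% and 37.3% to 40.5%. In set 1 the Gi and Go share was 49.6% ± 2.93 (SD, n = 3) in the controls and 48.1% ± 0.554 (SD, n = 3) after Cop1 deletion, with overlapping values. It was 52.5% ± 1.61 (SD, n = 4) in the Etv1/4/5 libraries and 46.9% ± 2.11 (SD, n = 4) in the Etv4/5 libraries. These shares are given as a description, without a test.

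**Figure D3:**
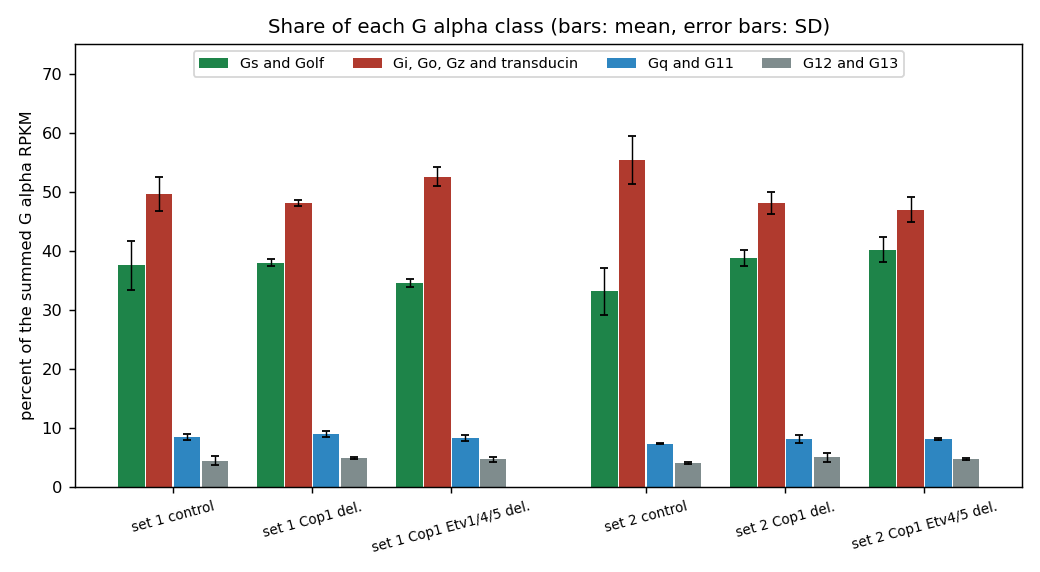
Percent of the summed RPKM of 16 α subunit genes (Gnasas1 left out) that falls to each class, in the 6 groups; bars are group means and error bars the SD over 3 or 4 libraries. The Gi and Go class leads in every group, from 46.9% to 55.4%.

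Among the 4 tested β subunit genes none was called in any of the 8 comparisons, a count too small to set against the share of all genes. Gnb2 and Gnb1 encode the common β subunits of islet G proteins. In set 1, Gnb2 was 128, 113 and 129 RPKM in the controls, 118, 131 and 128 after Cop1 deletion and 119, 123, 128 and 126 in the Etv1/4/5 libraries. In set 2, Gnb2 was 136, 139, 144 and 147 RPKM in the controls, 148, 197, 157 and 152 after Cop1 deletion and 142, 140, 144 and 138 in the Etv4/5 libraries. The set 2 Cop1 deletion values lay above the controls, with replicate 2 highest, and the log2 fold change of 0.20 ± 0.07 (SE) missed the threshold (adjusted p = 0.057).

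In set 1, Gnb1 was 82.3, 83.3 and 88.2 RPKM in the controls, 84.8, 84.6 and 83.5 after Cop1 deletion and 80.1, 79.2, 88.8 and 84.8 in the Etv1/4/5 libraries. In set 2, Gnb1 was 114, 111, 106 and 101 RPKM in the controls, 104, 114, 114 and 114 after Cop1 deletion and 108, 107, 111 and 106 in the Etv4/5 libraries. Control and Cop1 deletion values overlapped in both sets, and the mean log2 fold change was 0.02 ± 0.04 (SE), adjusted p = 0.74. Gnb5, the β subunit that pairs with Rgs7, Rgs9 and Rgs11, was 16.3 and 15.1 RPKM in set 1 controls and Cop1 deletion and 14.1 and 15.4 in set 2. Its log2 fold change was 0.00 ± 0.05 (SE), adjusted p = 0.96.

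Of the γ subunits, which anchor the βγ dimer to membranes, Gng12 fell and Gng3 rose. In set 1, Gng12 was 164, 173 and 156 RPKM in the controls, 132, 143 and 160 after Cop1 deletion and 118, 133, 98.2 and 114 in the Etv1/4/5 libraries. In set 2, Gng12 was 230, 228, 192 and 144 RPKM in the controls, 86.5, 74.4, 89.8 and 113 after Cop1 deletion and 98.7, 125, 146 and 139 in the Etv4/5 libraries. All set 2 Cop1 deletion values lay below the lowest control, while the set 1 groups overlapped. By limma, the log2 fold change stood at -0.65 ± 0.11 (SE), adjusted p = 0.00043, in the mean of both sets, -1.12 ± 0.15 (SE), adjusted p = 4.4e-05, in set 2 and -0.18 ± 0.17 (SE), adjusted p = 0.65, in set 1. The difference between the sets was 0.93 ± 0.23 (SE), adjusted p = 0.033, and it was 0.80 (adjusted p = 0.098) without set 2 Cop1 deletion replicates 2 and 3. Leaving out set 1 control replicate 1 or 3, set 1 Cop1 deletion replicate 3 or 4, or set 2 control replicate 1, 2 or 3 also ended that call, within a range of 0.80 to 1.14. Gng12 also fell in the Etv4/5 libraries against control, at -0.63 ± 0.15 (SE), adjusted p = 0.011. In set 2, ductal marker genes summed to 510 to 614 RPKM in the controls and 1060 to 1310 after Cop1 deletion. Of 8 tested ductal markers, 2 were called higher there beside 18.8% of all genes called, with a median of 0.585. Acinar markers summed to 865 to 13000 RPKM in the controls and 4520 to 25000 after Cop1 deletion. Of these, 0 of 14 were called, with a median of 1.471. The part of other cell types in the fall of Gng12 was not tested.

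Gng4, the second γ subunit by level, was 74.6, 59.3 and 76.2 RPKM in set 1 controls, 55, 58 and 77.1 after Cop1 deletion and 74, 72.3, 65 and 65.3 in the Etv1/4/5 libraries. In set 2, Gng4 was 119, 124, 89.5 and 105 RPKM in the controls, 115, 83.3, 74.3 and 119 after Cop1 deletion and 113, 118, 117 and 125 in the Etv4/5 libraries. The groups overlapped and the log2 fold change was -0.16 ± 0.11 (SE), adjusted p = 0.31. Gng3, known from neurons, was 2.41, 2.5 and 2.65 RPKM in set 1 controls, 3.51, 2.64 and 2.98 after Cop1 deletion and 2.6, 2.58, 2.5 and 2.11 in the Etv1/4/5 libraries. In set 2, Gng3 was 2.14, 2.46, 2.39 and 2.03 RPKM in the controls, 2.64, 3.16, 2.68 and 2.85 after Cop1 deletion and 3.02, 3, 3.05 and 2.78 in the Etv4/5 libraries. Its log2 fold change was 0.25 ± 0.06 (SE), adjusted p = 0.01, in the mean of both sets, and 0.18 (adjusted p = 0.083) after scaling to one RPKM total that leaves out Ins1 and Ins2. Gng3 shares 24.2% of its annotated exon sequence with Bscl2 on the opposite strand, so reads of the 2 genes cannot be told apart there. The other 6 tested γ genes (Gng2, Gng5, Gng7, Gng10, Gng11 and Gngt2) were called in no comparison.

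**Figure D4:**
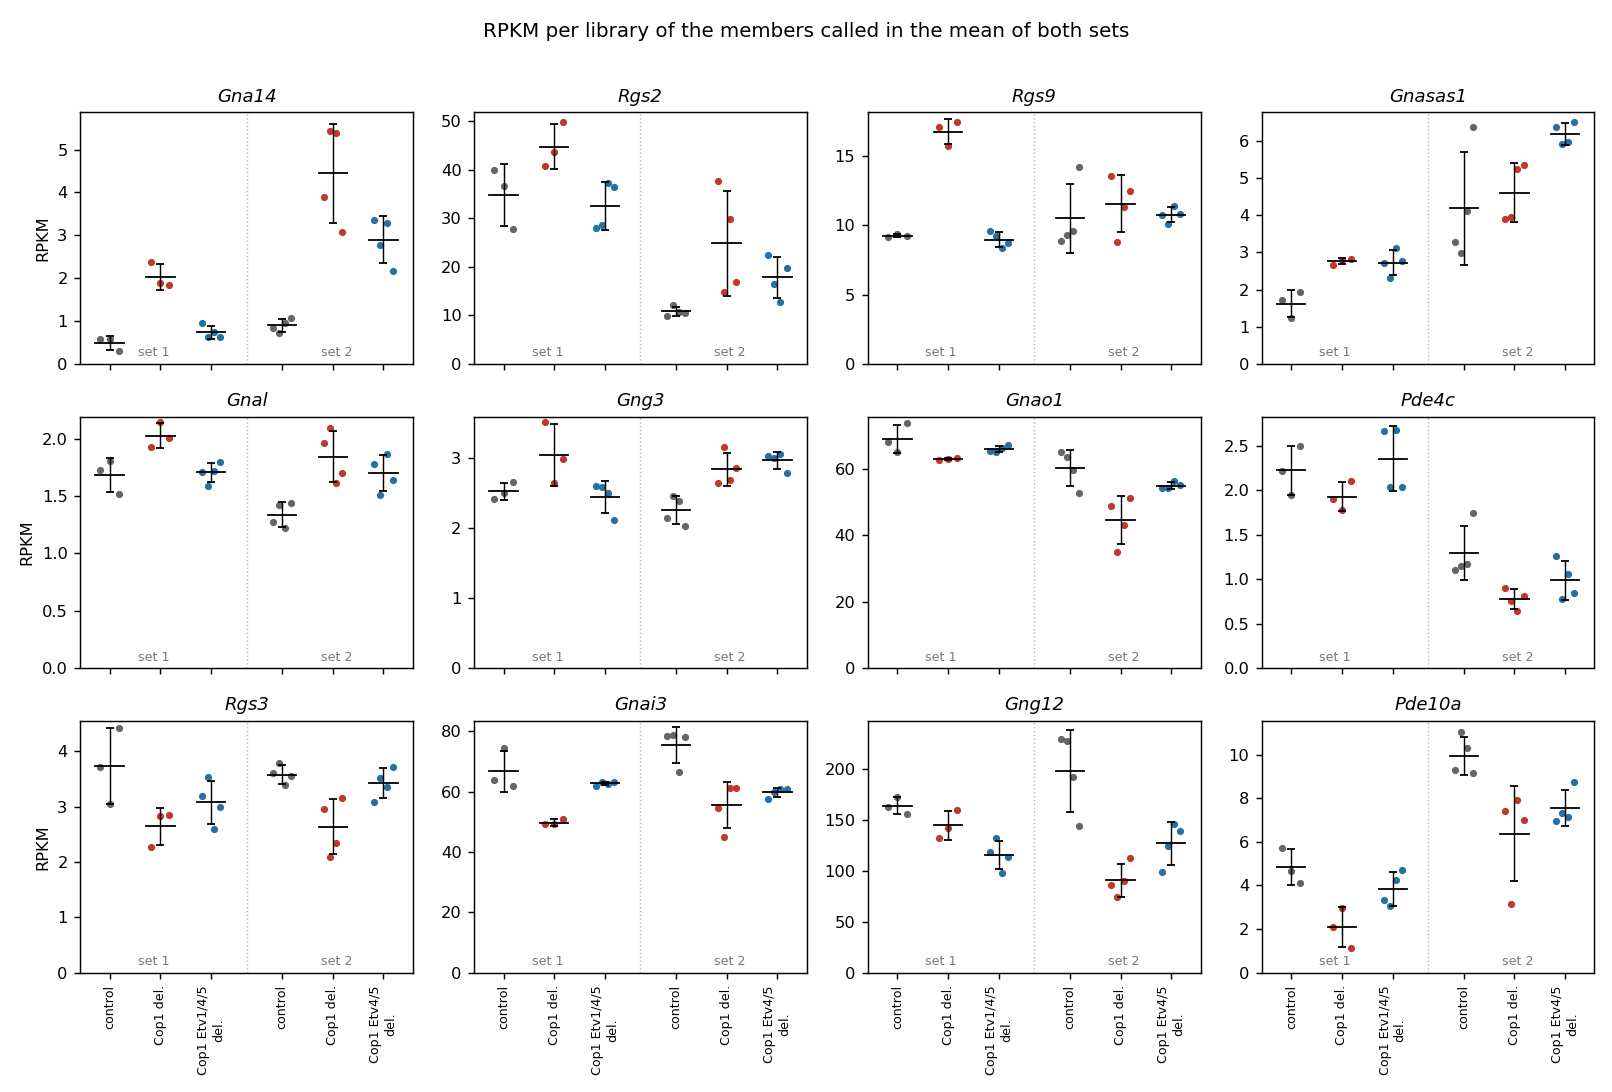
RPKM in each library (points) of the 12 members called in the mean of both sets, for controls (grey), Cop1 deletion (red) and the compound Etv deletions (blue); black lines are group means and bars the SD over 3 or 4 libraries. Gna14 separates Cop1 deletion from control in both sets, whereas Rgs9 does so in set 1 alone.

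Of the 14 tested Rgs genes, Rgs2 and Rgs9 rose and Rgs3 fell in the mean of both sets. Rgs2 acts preferentially on Gq. In set 1, Rgs2 was 40, 36.6 and 27.8 RPKM in the controls, 40.8, 43.6 and 49.8 after Cop1 deletion and 28.1, 28.6, 37.3 and 36.4 in the Etv1/4/5 libraries. In set 2, Rgs2 was 9.95, 12.1, 10.7 and 10.6 RPKM in the controls, 37.6, 14.9, 29.8 and 16.9 after Cop1 deletion and 22.5, 16.5, 12.7 and 19.8 in the Etv4/5 libraries. In each set the lowest Cop1 deletion library lay above the highest control. On the log2 scale the change was 0.72 ± 0.17 (SE), adjusted p = 0.0061, in the mean of both sets, 1.06 ± 0.23 (SE), adjusted p = 0.0029, in set 2 and 0.37 ± 0.26 (SE), adjusted p = 0.49, in set 1.

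Rgs9, known from photoreceptors and striatum, works as a complex with Gβ5. In set 1, Rgs9 was 9.18, 9.37 and 9.22 RPKM in the controls, 17.1, 15.7 and 17.4 after Cop1 deletion and 9.57, 9.24, 8.4 and 8.72 in the Etv1/4/5 libraries. In set 2, Rgs9 was 8.86, 9.35, 9.61 and 14.2 RPKM in the controls, 13.6, 8.79, 11.3 and 12.5 after Cop1 deletion and 10.8, 10.1, 11.4 and 10.8 in the Etv4/5 libraries. The 3 set 1 Cop1 deletion libraries stood apart from all other set 1 libraries, while the set 2 groups overlapped. The log2 fold change was 0.82 ± 0.14 (SE), adjusted p = 0.00084, in set 1, 0.14 ± 0.12 (SE), adjusted p = 0.45, in set 2 and 0.48 ± 0.09 (SE), adjusted p = 0.0011, in the mean. Against Cop1 deletion alone, Rgs9 fell by 0.87 on the log2 scale in the Etv1/4/5 libraries (SE 0.13, adjusted p = 0.00038), and differed from control there by -0.04 ± 0.13 (SE). The difference of the Cop1 effect between the sets was 0.68 ± 0.19 (SE), adjusted p = 0.055, and did not pass the threshold. Without set 2 control replicate 4, at 14.2 RPKM, the set 2 change passed it, and over all alternatives the set 2 value ranged from -0.02 to 0.41. The difference between sets passed on leaving out set 2 control replicate 1 or 4 or Cop1 deletion replicate 1 or 4, with a range of 0.38 to 0.88. The set 1 changes of Rgs9 held under every alternative run.

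Rgs3 acts on Gi and Gq. In set 1, Rgs3 was 3.71, 3.05 and 4.43 RPKM in the controls, 2.26, 2.84 and 2.84 after Cop1 deletion and 3.19, 3.54, 2.59 and 3 in the Etv1/4/5 libraries. In set 2, Rgs3 was 3.6, 3.79, 3.38 and 3.55 RPKM in the controls, 2.96, 2.1, 2.35 and 3.16 after Cop1 deletion and 3.09, 3.52, 3.35 and 3.72 in the Etv4/5 libraries. Cop1 deletion values lay below the controls in both sets. Its log2 fold change was -0.41 ± 0.09 (SE), adjusted p = 0.0032, in the mean of both sets. In set 2 it was -0.39 ± 0.12 (SE), adjusted p = 0.026, and -0.20 (adjusted p = 0.34) without Cop1 deletion replicates 2 and 3; leaving out either of these, or control replicate 1 or 2, was enough to end the call.

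Rgs4 and Rgs16, relatives of Rgs2 that act on Gi and Gq, fell in set 1 and were not called in set 2. In set 1, Rgs4 was 97.9, 138 and 56.4 RPKM in the controls, 50.5, 45.2 and 51.3 after Cop1 deletion and 99.8, 89.9, 60.7 and 69.7 in the Etv1/4/5 libraries. In set 2, Rgs4 was 174, 180, 231 and 198 RPKM in the controls, 238, 232, 300 and 165 after Cop1 deletion and 209, 181, 178 and 152 in the Etv4/5 libraries. The highest set 1 control was the library labelled control replicate 2. The set 1 log2 fold change of Rgs4 was -0.89 ± 0.25 (SE), adjusted p = 0.033, and it was -0.60 (adjusted p = 0.16) without that library. Leaving out control replicate 1 or any Cop1 deletion library of set 1 ended the call too. In set 2 it was 0.23 ± 0.22 (SE), adjusted p = 0.48, and the difference between sets was -1.13 ± 0.33 (SE), adjusted p = 0.079.

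In set 1, Rgs16 was 46, 26.7 and 38.8 RPKM in the controls, 22.7, 21.9 and 21.4 after Cop1 deletion and 19.1, 23.5, 21.9 and 28.2 in the Etv1/4/5 libraries. In set 2, Rgs16 was 9.4, 10.4, 10 and 9.83 RPKM in the controls, 9.57, 16.9, 17.3 and 12 after Cop1 deletion and 14.5, 13.6, 15.6 and 13 in the Etv4/5 libraries. The Cop1 deletion libraries lay below the controls in set 1, and in set 2 3 of 4 lay above them. By limma, the log2 fold change stood at -0.71 ± 0.19 (SE), adjusted p = 0.025, in set 1 and 0.43 ± 0.17 (SE), adjusted p = 0.072, in set 2. The difference between the sets passed the test at -1.14 ± 0.25 (SE), adjusted p = 0.018, and was -0.82 (adjusted p = 0.061) without set 2 Cop1 deletion replicates 2 and 3, the pair with the highest set 2 values. It also missed the threshold without set 1 control replicate 1, and the set 1 call was lost under 5 alternatives that leave out 1 library of set 1. Rgs16 shares 10.1% of its annotated exon sequence with the antisense gene Gm28513.

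Rgs17 was called in set 2 only, at -0.54 ± 0.14 (SE), adjusted p = 0.012, from 9.38 ± 1.58 RPKM (SD, n = 4) to 6.43 ± 1.7 (SD, n = 4). In set 1 its mean was 2.22 RPKM in the controls and 2.22 after Cop1 deletion, and the difference between sets was 0.54 ± 0.22 (SE), adjusted p = 0.21. The other 8 tested Rgs genes (Rgs1, Rgs5, Rgs7, Rgs7bp, Rgs10, Rgs11, Rgs12 and Rgs19) were called in no comparison. Rgs5, a known pericyte transcript, was 12.5, 9.64, 12.2 and 8.79 RPKM in set 2 controls and 8.22, 5.27, 19.5 and 12.7 after Cop1 deletion, where summed pericyte and stromal markers were 27.7 to 112 and 14 to 159 RPKM. Among set 2 libraries, Rgs10, Gngt2, Rgs13 and Rgs14, known from immune cells, were highest in Cop1 deletion replicate 2. That library had the highest immune marker sum, 412 RPKM. There Rgs10 was 7.68 RPKM, Gngt2 9.16, Rgs13 0.876 and Rgs14 0.662, against highest values of 3.84, 3.46, 0.032 and 0.102 in the set 2 controls. Gna15, Rgs18 and Adcy7 were instead highest in Cop1 deletion replicate 3, at 0.597, 0.0459 and 1.236 RPKM. In replicate 2 these genes were 0.488, 0.0448 and 1.085 RPKM. The part of these other cell types in the values was not tested.

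**Figure D5:**
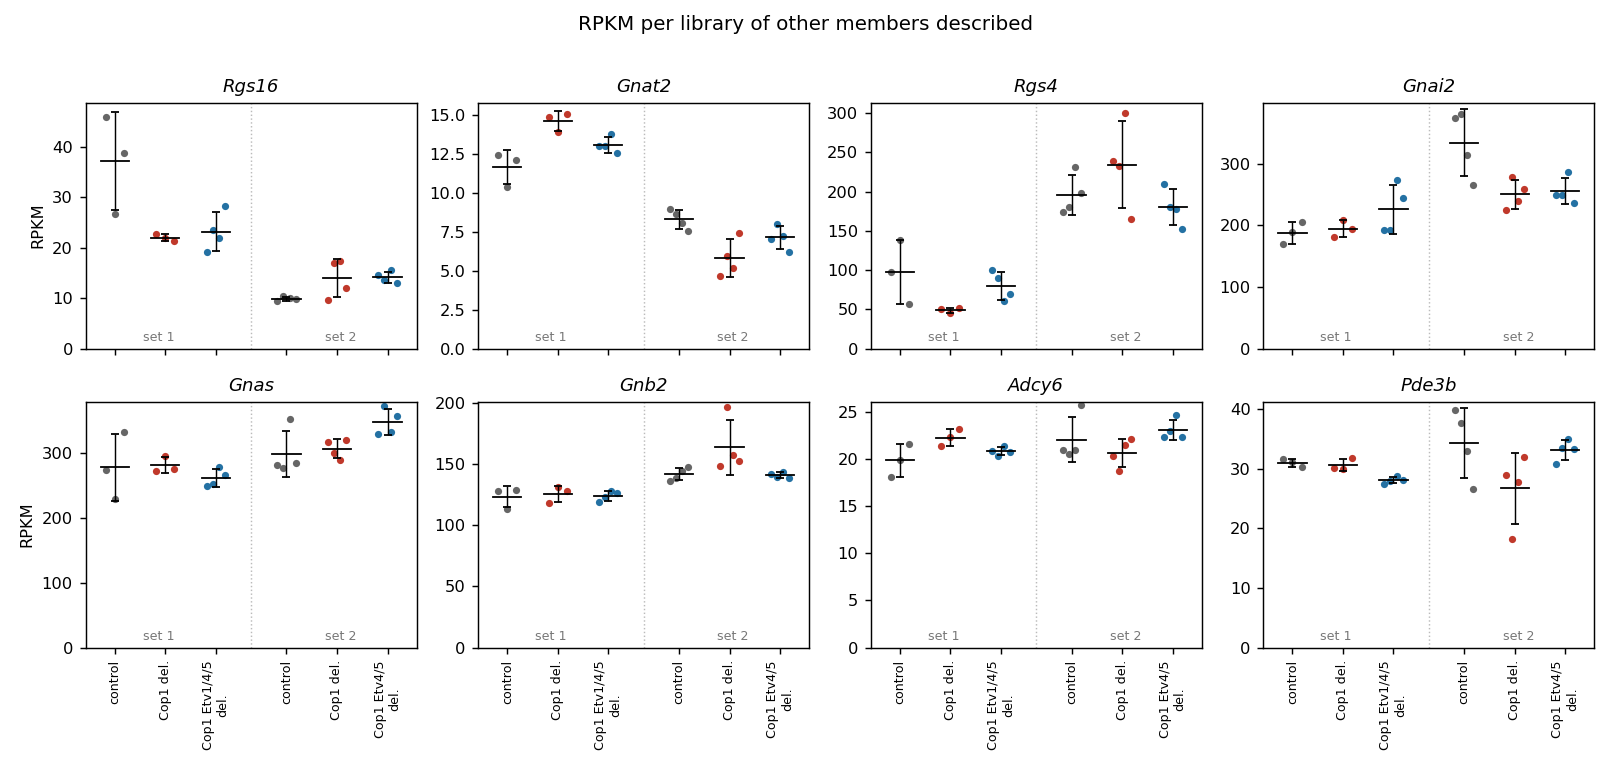
RPKM in each library (points) of 8 further members, for controls (grey), Cop1 deletion (red) and the compound Etv deletions (blue); black lines are group means and bars the SD over 3 or 4 libraries. Rgs16 and Gnat2 shift in opposite directions in the 2 sets, and Gnas, Adcy6 and Pde3b overlap between controls and Cop1 deletion in set 2.

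None of the 5 tested adenylate cyclases was called in any comparison, where 1.32% to 20.1% of all genes were. Adcy6 and Adcy9, which make cyclic AMP at the membrane, held 83.0% to 85.7% of the summed adenylate cyclase RPKM in the group means. In set 1, Adcy6 was 18.1, 19.9 and 21.6 RPKM in the controls, 21.3, 22.3 and 23.2 after Cop1 deletion and 20.8, 20.3, 21.4 and 20.8 in the Etv1/4/5 libraries. In set 2, Adcy6 was 21, 20.6, 21 and 25.7 RPKM in the controls, 20.3, 18.8, 21.5 and 22.1 after Cop1 deletion and 22.3, 22.9, 24.6 and 22.4 in the Etv4/5 libraries. The mean log2 fold change of Adcy6 after Cop1 deletion was 0.04 ± 0.05 (SE), adjusted p = 0.68.

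In set 1, Adcy9 was 14.5, 14.5 and 14 RPKM in the controls, 10.9, 10.8 and 11.1 after Cop1 deletion and 12.6, 14, 12.4 and 13.8 in the Etv1/4/5 libraries. In set 2, Adcy9 was 16.2, 15.5, 14.1 and 11 RPKM in the controls, 16.1, 4.74, 13.3 and 14.3 after Cop1 deletion and 14.7, 15.9, 16.7 and 17.4 in the Etv4/5 libraries. All set 1 Cop1 deletion values lay below the controls, and in set 2 Cop1 deletion replicate 2 stood at 4.74 RPKM, below all other libraries. The mean log2 fold change was -0.35 ± 0.18 (SE), adjusted p = 0.17. As ratios of group means, Cop1 deletion over control was 0.762 in set 1 and 0.853 in set 2. The Etv1/4/5 libraries lay above the set 1 Cop1 deletion libraries, at a ratio of 1.21. That Adcy9 was not called does not show that it was unchanged. Adcy3, Adcy4 and Adcy5 were 0.721 to 2.35 RPKM in group means. Adcy8, the calcium-stimulated cyclase known from β cells, was at most 0.812 RPKM in a library and was not tested, like Adcy1, Adcy2, Adcy7 and Adcy10.

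Of the 16 tested Pde genes, Pde10a and Pde4c fell in the mean of both sets and none rose. Pde10a degrades cyclic AMP and cyclic GMP and is known for its abundance in the striatum. In set 1, Pde10a was 5.73, 4.64 and 4.13 RPKM in the controls, 2.11, 2.98 and 1.14 after Cop1 deletion and 3.33, 3.05, 4.23 and 4.72 in the Etv1/4/5 libraries. In set 2, Pde10a was 9.27, 11, 10.3 and 9.17 RPKM in the controls, 7.42, 3.14, 7.92 and 7 after Cop1 deletion and 6.96, 7.34, 7.13 and 8.74 in the Etv4/5 libraries. Every Cop1 deletion value lay below every control of its set. On the log2 scale the change was -0.89 ± 0.18 (SE), adjusted p = 0.0013, in the mean of both sets and -1.11 ± 0.27 (SE), adjusted p = 0.013, in set 1. In set 2 it was -0.67 ± 0.23 (SE), adjusted p = 0.049, and -0.43 (adjusted p = 0.22) without Cop1 deletion replicates 2 and 3, and that call was lost under 24 of 34 alternatives. The set 1 call was lost without control replicate 1 or Cop1 deletion replicate 4, with a highest adjusted p of 0.086. The Etv1/4/5 libraries differed from Cop1 deletion alone by 0.80 ± 0.25 (SE), adjusted p = 0.064.

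Pde4c encodes a cyclic AMP-specific enzyme. In set 1, Pde4c was 2.22, 1.95 and 2.5 RPKM in the controls, 1.9, 1.78 and 2.1 after Cop1 deletion and 2.67, 2.04, 2.68 and 2.04 in the Etv1/4/5 libraries. In set 2, Pde4c was 1.1, 1.15, 1.18 and 1.75 RPKM in the controls, 0.897, 0.753, 0.639 and 0.817 after Cop1 deletion and 1.26, 0.782, 1.06 and 0.852 in the Etv4/5 libraries. The set 1 groups overlapped and the set 2 groups did not. The log2 fold change was -0.32 ± 0.10 (SE), adjusted p = 0.024, in the mean of both sets, and -0.28 (adjusted p = 0.075) without set 2 Cop1 deletion replicates 2 and 3. In set 2 it was -0.48 ± 0.13 (SE), adjusted p = 0.013, and -0.39 (adjusted p = 0.12) without that pair.

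Pde3b, a cyclic AMP-degrading enzyme of β cells, was not called. In set 1, Pde3b was 31.6, 31.1 and 30.2 RPKM in the controls, 30.1, 29.9 and 31.8 after Cop1 deletion and 27.4, 28, 28.7 and 28.1 in the Etv1/4/5 libraries. In set 2, Pde3b was 39.8, 37.7, 33 and 26.5 RPKM in the controls, 28.9, 18.2, 27.7 and 32 after Cop1 deletion and 30.7, 33.4, 34.9 and 33.3 in the Etv4/5 libraries. The set 2 log2 fold change was -0.37 ± 0.13 (SE), adjusted p = 0.053. Its relative Pde3a rose in set 1 from 1.49 ± 0.147 to 2.54 ± 0.228 RPKM (SD, n = 3), at 0.61 ± 0.18 (SE), adjusted p = 0.038. Pde3a shares 5.82% of its exon sequence with the antisense gene Gm28523. That change was 0.55 (adjusted p = 0.11) without set 1 control replicate 2, and was lost on leaving out any of the 6 libraries compared.

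Pde5a, the cyclic GMP-specific enzyme, was 33.2, 50.6 and 19.6 RPKM in set 1 controls, 45.1, 32.8 and 26.9 after Cop1 deletion and 34.2, 36, 29.9 and 32.2 in the Etv1/4/5 libraries. In set 2, Pde5a was 24.5, 24.9, 22.6 and 9.45 RPKM in the controls, 13, 6.61, 9.72 and 12.5 after Cop1 deletion and 14.5, 12.8, 14.6 and 14.6 in the Etv4/5 libraries. In set 2, 3 controls stood well above the Cop1 deletion values and replicate 4 among them. Its log2 fold change was -0.88 ± 0.29 (SE), adjusted p = 0.039, in set 2, and -0.56 (adjusted p = 0.33) without Cop1 deletion replicates 2 and 3. Leaving out 1 of these, or control replicate 1, 2 or 3, also ended the call. In set 1 it was 0.09 ± 0.33 (SE), adjusted p = 0.93, and the difference between sets was 0.96 ± 0.44 (SE), adjusted p = 0.27. The other 12 tested Pde genes were called in no comparison, among them Pde8a (23 and 25.7 RPKM in the controls) and Pde4b (15.7 and 17), both of which degrade cyclic AMP.

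Against Cop1 deletion alone, the share of members called in the compound deletions was close to that of all genes. Between Etv1/4/5 and Cop1 deletion libraries of set 1, 4 members were called, 1 higher and 3 lower, which is 6.45% beside 6.34% of all genes. Gnai3 was higher, and Gna14, Rgs9 and Pde3a were lower, the last at -0.56 ± 0.16 (SE), adjusted p = 0.047, a call lost under 17 of 34 alternatives. Between Etv4/5 and Cop1 deletion libraries of set 2, 1 member was called, Gnai1, which is 1.61% beside 1.73% of all genes. Pde3a was higher there by 0.60 ± 0.15 (SE), adjusted p = 0.051, without overlap of the groups, which missed the threshold. Between Etv1/4/5 libraries and control, 0 members were called by limma beside 1.32% of all genes. In that limma comparison 6 members had an unadjusted p below 0.05, a count without the share of all genes at that cutoff. Between Etv4/5 libraries and control, 5 members were called beside 8.74% of all genes: Gna14, Gnasas1 and Gng3 were higher, and Gng12 and Gnai3 lower. Of the last comparison's calls, Gnasas1 was lost under 12 of 34 alternatives, Gng3 under 6, Gng12 under 2, Gnai3 under 1 and Gna14 under 0. Leaving out control replicate 1, 2 or 3 or any Etv4/5 library ended that of Gnasas1, and leaving out control replicate 1 or Etv4/5 replicate 2 or 3 that of Gng3. These comparisons share libraries with those of Cop1 deletion against control, so the values are set side by side and not counted as a second observation.

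The Cop1 deletion effect itself differed between the sets for 3 members beside 2.83% of all genes. As signed log2 values, set 1 and set 2 gave 0.32 and -0.50 for Gnat2, -0.18 and -1.12 for Gng12, and -0.71 and 0.43 for Rgs16. The other 59 tested members did not pass this test, which does not show that their effects were alike: for Rgs9 the difference was 0.68 ± 0.19 (SE), adjusted p = 0.055, and for Rgs4 -1.13 ± 0.33 (SE), adjusted p = 0.079.

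Genes on either side of these proteins were read from lists of the pathway, and each count below stands beside the 20.1% of all genes called in the mean of both sets. Of 34 tested G protein-coupled receptors of islet cells, 4 rose and 7 fell in the mean of both sets, with a median log2 fold change of -0.061 beside -0.016 over all genes. Ffar2, a receptor for short-chain fatty acids that couples to Gi and Gq, rose (control mean 9.41 and deletion mean 17.5 RPKM in set 1, against 10 and 22.8 in set 2) by 0.99 ± 0.08 (SE), adjusted p = 1.2e-07. Vipr1, a Gs-coupled receptor for vasoactive intestinal peptide, fell from 18.9 to 9.46 and from 26.2 to 12.3 RPKM (-1.03 ± 0.11 (SE), adjusted p = 3.7e-06). Gprc5b and Adgrg1 also rose, at 0.59 ± 0.08 and 0.29 ± 0.04 (SE). The incretin receptors Glp1r and Gipr, named after their values were seen, fell at -0.63 ± 0.18 and -0.68 ± 0.17 (SE), with adjusted p of 0.016 and 0.008. The β cell markers fell beside them, 6 of 10 with a median of -0.715, and their part in these values was not tested.

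Of 21 tested receptor kinases, arrestins and G protein regulators, 1 rose and 3 fell, with a median of -0.015. Grk5, a kinase that desensitises receptors, fell (control mean 12 and deletion mean 5.41 RPKM in set 1, against 8.9 and 4.2 in set 2), at -1.03 ± 0.09 (SE), adjusted p = 3e-07, and was 9.14 in the Etv1/4/5 and 6.21 in the Etv4/5 libraries. Gpsm1, which binds Gi α subunits in their GDP form, fell at -0.80 ± 0.12 (SE), adjusted p = 0.00013. Cct5, a chaperonin subunit, fell at -0.26 ± 0.06 (SE) and Grk3 rose at 0.30 ± 0.10 (SE).

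Of 18 tested genes of the phospholipase C and protein kinase C arm, 5 rose and 2 fell, with a median of -0.002. Dgkz, a kinase that consumes diacylglycerol, rose (control mean 14.1 and deletion mean 35.7 RPKM in set 1, against 21.3 and 46 in set 2) by 1.20 ± 0.08 (SE), adjusted p = 3.3e-09, and was 38.9 in the Etv1/4/5 and 49.6 in the Etv4/5 libraries. Plcb3, a phospholipase driven by Gq, and Itpr3, an inositol trisphosphate receptor, rose at 0.36 ± 0.06 and 0.50 ± 0.10 (SE). Dgka rose at 0.24 ± 0.06 (SE).

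Of 20 tested genes of protein kinase A, EPAC and anchoring proteins, 2 rose and 2 fell, close to the 20.1% of all genes, with a median of -0.044. Prkar1a, a regulatory subunit of protein kinase A, rose in the mean at 0.76 ± 0.10 (SE), adjusted p = 2.3e-05, from 487 to 1030 RPKM in set 2, and was 0.47 ± 0.15 (SE), adjusted p = 0.062, in set 1. The summed level of the list, which includes Prkar1a, was 760 to 893 RPKM in set 2 controls and 1050 to 1810 after Cop1 deletion. The means of that sum were 840 and 1380 RPKM, so it mostly follows Prkar1a. In set 2, 1 of the 20 rose and 2 fell beside 18.8% of all genes called, with a median of -0.028. Akap7 rose at 0.20 ± 0.07 (SE), and the anchoring protein Akap6 and the regulatory subunit Prkar1b fell at -0.41 ± 0.11 and -0.16 ± 0.05 (SE). Of 11 tested genes of the CREB pathway, 0 rose and 3 fell, with a median of -0.153. Creb1, its coactivator Crtc1 and Crem fell at -0.36 ± 0.08, -0.26 ± 0.06 and -0.37 ± 0.09 (SE) in that mean. In set 1 alone, 0 of the 11 were called beside 8.33% of all genes, with a median of -0.062. In set 2 alone, 3 fell beside 18.8% of all genes called, with a median of -0.368. The summed level of this list was 147 to 161 RPKM in set 2 controls and 97.2 to 139 after Cop1 deletion.

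Of 14 tested transcripts known to respond to cyclic AMP in other tissues, 1 rose and 6 fell, with a median of -0.478. Nr4a1, an immediate early transcription factor, fell at -0.89 ± 0.16 (SE), adjusted p = 0.00048, the coactivator Ppargc1a at -0.84 ± 0.14 (SE), adjusted p = 0.00031, and Sst at -0.84 ± 0.14 (SE), adjusted p = 0.00031. Scg2, a granin, rose at 0.56 ± 0.08 (SE), adjusted p = 6.7e-05. Sst is also the hormone of δ cells, whose part in this value was not tested. These lists were drawn up with earlier results of these data known, and their counts and medians are a description.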

How the data were processed

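The deposited file holds RPKM values for 28059 genes and 24 libraries, made by the authors from reads on mm9, per the submitters' processing notes. Not given in the sources used here were the aligner, counter, annotation and strand setting. Symbols came from RefSeq (GRCm38.p6) by NCBI Gene number. 2 columns could not be placed, since a sample number stands in 2 titles, and were not used. Relative depth came from low values, of which 88.4% to 92.0% lay within 0.01 of whole steps; total reads are unknown. limma 3.58.1 in R 4.3.3 (trend, robust) was fitted to log2(RPKM + 0.5), with 1 mean for each of 6 groups, over 14342 genes at 1 RPKM or more in at least 4 libraries. Contrasts were 2-sided, with Benjamini-Hochberg adjustment over all genes and a threshold of 0.05. The test was tested on simulated data, drawn independently for each gene and library and without a difference between the sets. That simulation does not cover the differences between sets and libraries described above. The members and lists were chosen with earlier results of these data known. Values in every library are given for members called in the mean of both sets or in the difference between sets, and for the 2 highest of each family; from other lists, up to 4 called genes with the smallest adjusted p are named, and Gnai1, Rgs17, Pde3a and further members are named under the rule that any tested member may be. Per the design text a genotype had 5 biological replicates, but the labels do not name the animals, so p-values measure the spread between these libraries, which may be partly technical. Exon overlaps were read from GENCODE vM21. Alternatives covered the pseudocount, filter, scaling, fit, library weights and leaving out libraries. Python 3.11.15 with pandas 2.3.3, numpy 2.4.6 and matplotlib 3.10.9 handled tables and figures.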

Additional observations from a re-analysis of the deposited data

Results flagged for a closer look

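Of 108 groups of 4 libraries, over the 27 members tested for it, 8 held a value standing apart from the other 3 by a gap above Dixon's critical value. Chance alone gives about 1 in 20 such groups. Set 2 control replicate 4 gave 4 of them: Adcy6 at 25.7 RPKM, Pde4c at 1.75, Pde5a at 9.45 and Rgs9 at 14.2. Set 2 control replicate 3 stood apart for Gnai3 at 66.6 RPKM and Gnas at 353. Gnb1 was 104 RPKM in set 2 Cop1 deletion replicate 1, and Pde5a was 12.8 RPKM in Etv4/5 replicate 2. The Cop1 deletion effect differed between the 2 sets by the test of that difference for Gnat2 (0.82), Gng12 (0.93) and Rgs16 (-1.14, all set 1 minus set 2 on the log2 scale).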

How the results depend on the processing

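Of 47 calls of members over the 8 comparisons, 21 held under every one of the 34 alternatives run (22 of them leaving out 1 library), 26 were lost under at least 1 and 0 reversed. No paired analysis was possible because the labels give no replicate numbers, and the numbers used here follow accession order. Library weights ranged from 0.0623 in set 2 Cop1 deletion replicate 2 to 6.02 in set 2 Cop1 deletion replicate 4. Set 2 control replicate 4 had 0.115. With these weights the counts of called members were 32 (mean of both sets), 24 (set 1), 25 (set 2), 10 (Etv1/4/5 against Cop1 deletion), 17 (Etv4/5 against Cop1 deletion), 11 (Etv1/4/5 against control), 27 (Etv4/5 against control) and 18 (difference between sets). The cause was not tested. The counts of members here and below stand without the share of all genes under the same alternative. They describe how the calls move and are no result about the members. Leaving out 1 library gave 10 to 16, 3 to 11, 9 to 20, 2 to 6, 0 to 7, 0 to 1, 3 to 11, and 1 to 5, listed as before. The low of set 1 came without control replicate 1 or Cop1 deletion replicate 4, and that of set 2 without control replicate 1; the difference fell to 1 without set 1 control replicate 1. For Etv4/5 against Cop1 deletion, 7 came without Cop1 deletion replicate 4, and for Etv4/5 against control, 11 came without Cop1 deletion replicate 2. Leaving out set 2 Cop1 deletion replicates 2 and 3 gave 9 in set 2, 0 for Etv4/5 against Cop1 deletion, 1 for Etv1/4/5 against control, 12 for Etv4/5 against control and 1 for the difference. The Xist-positive libraries of set 2 alone, an alternative chosen after seeing the data, gave 9, 0, 1, 3 and 1 there. Each set fitted alone gave 9 in set 2, 0 for Etv4/5 against Cop1 deletion, and 2 each for Etv1/4/5 and Etv4/5 against control. For Etv4/5 against Cop1 deletion, a pseudocount of 0.1 or 1, or limma without trend, gave 2, and no filter or median-ratio scaling gave 0. For the difference, equal total RPKM gave 6 and equal total RPKM without Ins1 and Ins2 gave 5. Over all genes, equal total RPKM changed the calls of set 1 from 580 higher and 615 lower to 1122 and 256. The scaling without insulin changed those of set 2 from 1303 and 1399 to 632 and 4049, with the median of all genes moved by -0.16. Members below about 1 RPKM, such as Adcy8, lie below what the filter and pseudocount resolve.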
